A study of Mus musculus with 12 samples.

Results

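Colon tumours were compared with adjacent colon in flox mice, C57BL/6 animals that carry a floxed Synbindin allele and served as the undeleted controls of a study of Synbindin in a colitis-associated cancer model. The samples were chosen by their labels: 3 flox tumour libraries and 3 flox adjacent libraries, 6 of the 12 RNA-seq libraries in all. The remaining 6, again 3 tumours and 3 adjacent samples, came from ΔIEC mice, whose gut epithelium lacks Synbindin, and are used here only to set the flox differences beside a separate group. Trappc4 encodes Synbindin, which belongs to the TRAPP complexes that tether vesicles at the Golgi. All mice were in the same cancer model, so the adjacent colon is tissue of tumour-bearing mice and not colon of untreated animals. The labels used here give neither the agents and timing of the model nor the age of the mice, and the adjacent samples are called epithelium in 1 label and dissected tissue in another. The adjacent libraries are named FA1, FA2 and FA3 below and the tumours FT1, FT2 and FT3. Libraries with the same number share an animal code in the labels, and values are always given in the order 1, 2, 3.

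In colitis-associated cancer, tumours arise in a mucosa under chronic inflammation. The normal colon surface is covered by absorptive colonocytes, which take up salt, water and butyrate, and by mucus-secreting goblet cells, all renewed from Lgr5-expressing stem cells at the crypt base under the control of Wnt ligands. Wnt signalling stabilises β-catenin, which acts with TCF/LEF factors on target genes, several of which (Axin2, Nkd1, Notum, Rnf43, Znrf3) in turn restrain the pathway. Constitutive activity of this pathway is a known feature of colon tumours in mice and humans.

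The deposited values were log2(FPKM + 1) per transcript, where FPKM is the number of fragments scaled to transcript length and to library size. They were returned to FPKM, summed per gene and compared again as log2(FPKM + 1) with limma. No read counts were used, so the depth of a library is unknown and no counting interval can be given. For genes at low FPKM the difference on this scale is smaller than the log2 ratio of the listed values. These low values carry an unknown error, so the true change may be larger or smaller. A log2 difference of 1 is a doubling. The summed FPKM of a library was 694585 to 782804 in adjacent tissue and 534806 to 562788 in tumours, and 14757 to 15893 genes reached an FPKM of 1. Rescaling each library to the same protein-coding total moved the median difference of all genes from -0.01 to 0.36 on the log2 scale. Small differences therefore depend on the scale, and the sign of the median turned for the glycolysis, ribosomal protein, unfolded protein, TRAPP, interferon, T and NK cell, smooth muscle and prostaglandin lists described below.

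The libraries fell apart by tissue. The correlation of log2 values over the tested genes was 0.928 to 0.962 among the adjacent libraries, 0.937 to 0.951 among the tumours and 0.828 to 0.891 between them. Xist was at 160.2 to 189.7 FPKM in FA1, FA2, FT1 and FT2 and at 0.120 and 0.032 in FA3 and FT3, which expressed the Y-linked genes Ddx3y, Eif2s3y, Kdm5d and Uty, so both libraries of each code had the same sex. Trappc4, the gene that is floxed but not deleted in these mice, was at 16.8, 17.0 and 17.4 FPKM in adjacent tissue and 18.7, 17.5 and 20.9 in tumours, a log2 difference of 0.15 ± 0.12 (SE, limma adjusted p = 0.34). FA1 stood apart from the other 2 adjacent libraries for many genes. Of the 3346 genes lower in tumours, FA1 was the adjacent library nearest to the tumours for 2048 (61.2%), and Hoxd13, a marker of the most distal gut, was at 31.0 FPKM in FA1 against 0.046 and 0.074 in FA2 and FA3. The position along the colon from which each adjacent sample was taken is not given in the labels, and its part in these differences was not tested. Without FA1, 5911 genes were called, and with a single adjacent library 1255 (FA1), 2996 (FA2) and 2570 (FA3) were. Such a fit takes its spread from the other groups and assumes that the lone library varies as they do.

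Of 16970 genes tested, 6163 (36.3%) passed limma's test at an adjusted p below 0.05. Tumours were higher in 2817 genes (16.6%) and lower in 3346 (19.7%), and the median difference of all genes was -0.01. After protein-coding rescaling 6540 genes were higher and 1706 lower, so the share of higher calls moved from 45.7% to 79.3%. A stricter test, for a difference above 1 log2 unit, was passed by 309 genes (1.82%), 146 higher (0.86%) and 163 lower (0.961%). The stricter test itself was not refitted with a library left out. In the test without a minimum difference, all 309, which were picked on the same libraries, stayed called when any 1 of the 6 was left out. Of the 6163, 3540 (57.4%) did. The number called was lowest without FA2, at 3891. So many genes were called that the counts of each gene group below are to be read against 16.6% higher and 19.7% lower. In bulk tissue, fewer cells of a type and less RNA per cell cannot be told apart.

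Among the 10 largest rises were Krt36, S100a8, Spock2, S100a9, Mt4, Mgp, Defa24, Krt13 and Lcn2, from 5.61 to 4.62 log2 units. They join products of inflamed tissue (S100a8, S100a9 and Lcn2, antimicrobial proteins of neutrophils and stressed epithelium), keratins of stratified and hair-forming epithelia (Krt36, Krt13), a Paneth cell defensin (Defa24), a metallothionein (Mt4) and extracellular proteins (Spock2, Mgp). Spock2, a matrix proteoglycan, was at 6.96, 20.5 and 0.789 FPKM in adjacent tissue and 318, 252 and 209.9 in tumours. Mt4 lost its call without FT1 (adjusted p = 0.0516), and Defa24 is one of a family of near-identical genes between which reads may be split. The 10 largest falls were Cyp2c55, Fabp2, Hsd3b3, Dpep1, Car4, Mettl7b, Aqp8, Apol10a, Selenbp1 and Sult1a1, from -8.08 to -5.31 log2 units, and most are enzymes or transporters of surface colonocytes.

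Muc2, Zg16, Lypd8, Car1 and mt-Co1 had the largest falls in FPKM and together held 7.12%, 10.8% and 12.5% of the protein-coding FPKM in FA1, FA2 and FA3, against 3.11%, 2.65% and 3.31% in the tumours. Lypd8, a secreted protein that keeps bacteria off the epithelium, was at 11230, 13390 and 8363 FPKM in adjacent tissue and 4795, 2287 and 5660 in tumours, and its call (adjusted p = 0.033) was lost without FA1, FA2, FT1 or FT2, with adjusted p from 0.0549 to 0.113. The largest rises in FPKM were Lyz1, S100a11, S100a6, Ifitm3 and Mgp, and the call of S100a6 was lost without FA2, FA3, FT1 or FT3 (adjusted p = 0.069 to 0.13). S100a11, a calcium-binding protein, was at 330.0, 391 and 332 FPKM in adjacent tissue and 880.0, 1087 and 1244 in tumours, with no overlap, as was true of 53.5% of all genes (26.4% higher and 27.1% lower in tumours).

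**Figure D1:**
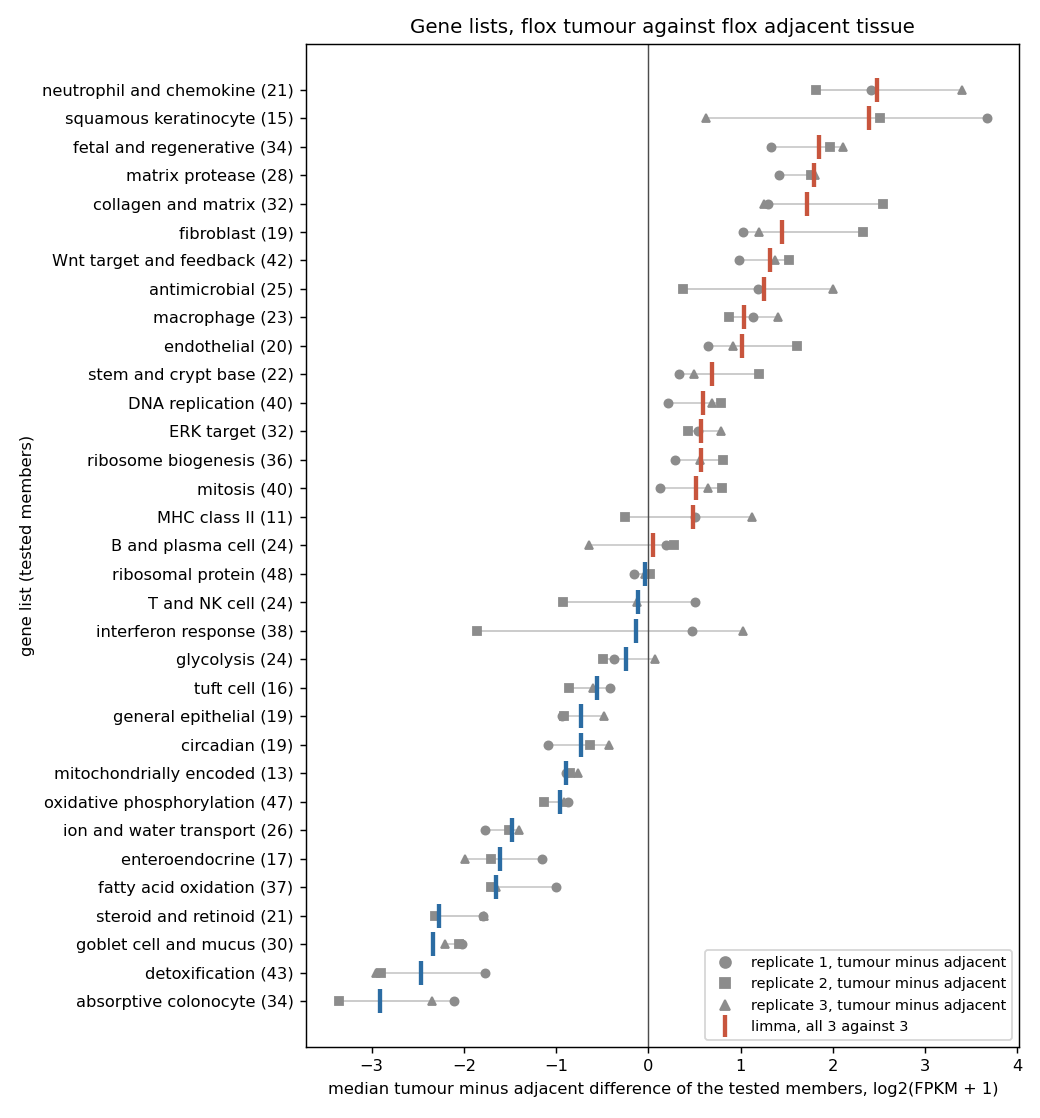
Median tumour minus adjacent difference of the tested members of 33 gene lists in flox mice, on the log2(FPKM + 1) scale, with 0 as the vertical line. Grey points give the difference within each animal code and the coloured bar the limma estimate over 3 against 3 libraries, red above 0 and blue below. The absorptive colonocyte list lies lowest at -2.90 and the neutrophil list highest at 2.47, and the interferon list spreads from -1.86 to 1.03 between codes.

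The lowest median of any list was that of the absorptive colonocytes of the colon surface. Of 34 absorptive colonocyte genes tested, 27 were lower in tumours and 0 higher, with a median difference of -2.90, and 11 passed the stricter test. Car1, a carbonic anhydrase of the colon surface, was at 566, 3870 and 7270 FPKM in adjacent tissue and 57.6, 56.8 and 202 in tumours (-4.83 ± 1.12, adjusted p = 0.00873). Car4, its membrane-bound relative, was at 939, 651 and 364 FPKM in adjacent tissue and 8.75, 9.99 and 6.71 in tumours (-6.01 ± 0.59, adjusted p = 2.99e-04). These groups do not overlap, which the rule for the largest falls required. For Car1 the lowest adjacent library was FA1, while for Car4 FA1 was the highest. Aqp8, a water channel, was at 143, 290.5 and 56.3 FPKM against 0.697, 5.05 and 1.18, and the chloride-bicarbonate exchanger Slc26a3 at 677, 370.0 and 144 against 8.27, 14.2 and 5.78. Fabp2, the intestinal fatty acid-binding protein, was at 33.4, 559 and 402.8 FPKM against 1.45, 1.74 and 0.695, so FA1 was far below FA2 and FA3 and still stood above every tumour. Against FA1 alone, the median of the absorptive list was -2.06, with 12 members lower and 1 higher. Against FA2 or FA3 alone 27 and 22 were lower, with medians of -3.13 and -2.91.

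Ion and water transport genes were lower in 16 of 26 tested members and higher in 0 (median -1.48). They included the corticosteroid pathway of the distal colon, in which the mineralocorticoid receptor Nr3c2 is shielded from glucocorticoids by the enzyme Hsd11b2. Nr3c2 was at 133, 109.5 and 106 FPKM in adjacent tissue and 22.1, 21.2 and 26.2 in tumours (-2.27 ± 0.33, adjusted p = 8.42e-04). Hsd11b2 was at 109.9, 159 and 79.8 FPKM and 11.5, 14.4 and 3.15. The sodium-proton exchanger Slc9a2 fell by 3.35 ± 0.40 and the chloride channel Cftr by 2.39 ± 0.49. In both cases the groups did not overlap, as in 53.5% of all genes.

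Goblet cell and mucus genes were lower in 23 of 30 tested members and higher in 0 (median -2.34), and 7 passed the stricter test. The median was -1.58, -2.44 and -2.17 against FA1, FA2 and FA3 alone. Muc2, the gel-forming mucin of the colon, was at 6649, 19020 and 27490 FPKM in adjacent tissue and 654, 1492 and 792 in tumours (-4.04 ± 0.80, adjusted p = 0.00405). Zg16, a lectin of the mucus that binds bacteria, was at 3692, 4563 and 3131 FPKM and 217, 168 and 64.0 (-4.81 ± 0.59, adjusted p = 5.40e-04). Both mucus proteins were higher in every adjacent library than in any tumour, which the rule for the largest falls in FPKM required. Other mucus components, Clca1 and Fcgbp, fell by 4.12 ± 0.72 and 3.57 ± 0.59. Klk1, a tissue kallikrein, was at 1012, 1142 and 1169 FPKM and 47.5, 89.5 and 11.5 (-4.87 ± 0.75, adjusted p = 0.00129). Atoh1, the transcription factor that commits progenitors to secretory fates, was at 35.5, 46.2 and 44.8 FPKM in adjacent tissue and 5.64, 8.98 and 7.73 in tumours (-2.36 ± 0.27, adjusted p = 4.12e-04).

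Enteroendocrine genes were lower in 14 of 17 tested members and higher in 0 (median -1.61). Chga, a granin of hormone granules, was at 24.1, 54.9 and 91.9 FPKM in adjacent tissue and 1.51, 1.79 and 0.405 in tumours. Gcg, which encodes the glucagon-like peptides, was at 24.2, 58.3 and 55.1 FPKM and 1.84, 1.31 and 0.382. In both genes FA1 was the lowest adjacent library and FT3 the lowest tumour. Tph1, the serotonin-synthesising enzyme, fell by 3.70 ± 0.57 and Sst, somatostatin, by 2.44 ± 0.30. The peptide YY gene Pyy, at 145, 92.5 and 46.1 FPKM and 56.1, 54.3 and 6.19, did not pass the test (adjusted p = 0.162).

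Of 16 tuft cell genes 7 were lower and 2 higher (median -0.55). With a filter at FPKM of at least 5, 7 genes were tested, 2 were higher and 1 lower (median 0.46). The direction of the list therefore depends on its members at low FPKM. Dclk1, a kinase that marks tuft cells, was at 11.7, 14.2 and 13.6 FPKM in adjacent tissue and 3.03, 3.42 and 2.90 in tumours (-1.78 ± 0.40, adjusted p = 0.00709). The taste-pathway G protein Gnat3 and the signalling regulator Rgs13 fell by 1.68 ± 0.37 and 1.52 ± 0.29. Against this direction, Avil, an actin-binding protein, was at 3.46, 7.30 and 4.01 FPKM in adjacent tissue and 28.1, 42.6 and 37.5 in tumours (2.68 ± 0.38, adjusted p = 8.13e-04). The other higher member was Alox5ap, a leukotriene pathway protein also made by myeloid cells, whose log2 difference of 0.92 kept its call in 2 of the 6 fits that left out 1 library.

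**Figure D2:**
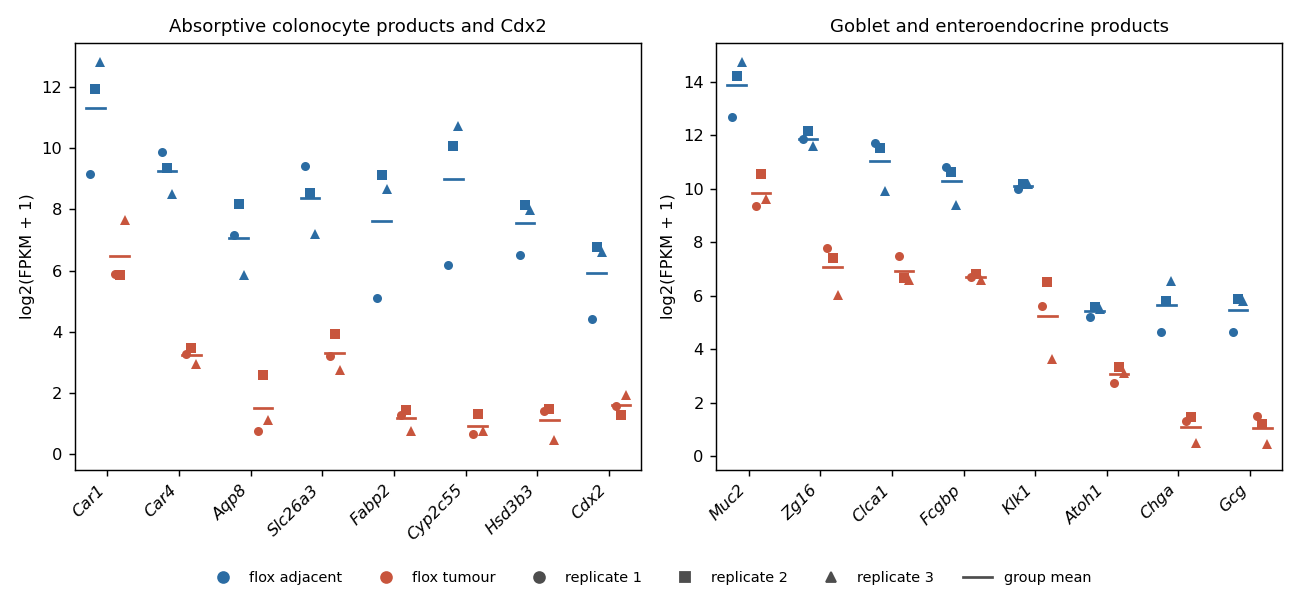
log2(FPKM + 1) of absorptive colonocyte genes with Cdx2 (left) and of goblet and enteroendocrine genes (right) in each flox library. Blue marks adjacent tissue, red tumours, the shape the replicate number and the short line the group mean. Every gene shown was lower in each tumour than in each adjacent library, and FA1 (blue circle) was the lowest adjacent library for Car1, Fabp2, Cyp2c55, Hsd3b3, Cdx2, Muc2, Klk1, Atoh1, Chga and Gcg.

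Genes shared by all epithelial cells moved less. Of 19 general epithelial genes, 15 were lower and 1 higher (median -0.73). Epcam, an adhesion molecule of epithelial cells, was at 557, 637 and 529 FPKM in adjacent tissue and 290.2, 396 and 378 in tumours (-0.70 ± 0.18, adjusted p = 0.012). The call was lost without FA2 (adjusted p = 0.0505), and after protein-coding rescaling only 8 of the 19 genes were lower. Cldn4, a claudin, was the member that rose, from 18.5, 67.0 and 29.7 FPKM to 101, 109 and 166. Its call was lost without FA1, FA3 or FT3 (adjusted p = 0.0604, 0.0592 and 0.0675). Of 23 tight junction genes, 9 were lower and 2 higher, and 6 passed without FA2 or without FT1. After protein-coding rescaling 3 were lower and 3 higher. Cldn15, a claudin that forms sodium-permeable pores, was at 34.8, 79.9 and 92.6 FPKM in adjacent tissue and 2.66, 6.10 and 2.54 in tumours. Neutrophil, macrophage, fibroblast and endothelial lists had more higher than lower members in the same tumours, as described below. The smooth muscle and the enteric nerve and glia lists showed no common rise. The part of cell composition in the epithelial differences was not tested.

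Mitochondrial energy metabolism was lower. Of 47 nuclear genes of oxidative phosphorylation and the citric acid cycle, 45 were lower and 0 higher (median -0.96). Against FA1, FA2 and FA3 alone their median was -0.78, -1.13 and -0.95. Cox5b, a subunit of cytochrome c oxidase, was at 226, 274 and 210.5 FPKM in adjacent tissue and 77.8, 81.3 and 93.9 in tumours (-1.48 ± 0.14, adjusted p = 2.91e-04). Cs, citrate synthase, was at 249.9, 243 and 208 FPKM and 84.2, 93.3 and 99.8 (-1.33 ± 0.17, adjusted p = 5.96e-04). The spread within each group was small beside the difference between them. Of 13 genes encoded by the mitochondrial genome, 9 were lower and 0 higher (median -0.90). The most abundant, mt-Co1, was at 11620, 17200 and 16250 FPKM and 5323, 5565 and 6137. After protein-coding rescaling 37 of the 47 nuclear genes and 5 of the 13 mitochondrial genes were lower.

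Fatty acid oxidation genes were lower in 28 of 37 tested members and higher in 0 (median -1.66). Slc5a8, a carrier of butyrate, the main fuel of colonocytes, was at 83.2, 78.0 and 56.4 FPKM in adjacent tissue and 8.38, 7.77 and 2.13 in tumours (-3.51 ± 0.58, adjusted p = 0.00175). Acads, the short-chain acyl-CoA dehydrogenase, was at 43.6, 111 and 119.6 FPKM and 21.2, 21 and 19.5. Ppara, a nuclear receptor that drives fatty acid oxidation, fell by 2.55 ± 0.54. For Acads and Ppara the values of FA1 lay between those of FA2 and the tumours.

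Glycolysis genes were lower in 7 of 24 tested members and higher in 2. Their median was -0.25 on the deposited scale and 0.19 after protein-coding rescaling, so the list has no direction that holds on both scales. Pfkfb3, which makes the activator of phosphofructokinase, was at 3.49, 3.01 and 2.48 FPKM in adjacent tissue and 13.2, 10.6 and 23.3 in tumours (2.00 ± 0.31, adjusted p = 0.00117). Its relative Pfkfb4 moved the other way, from 13.5, 13.3 and 14.2 FPKM to 6.81, 3.71 and 3.93. Hk1, a hexokinase, was at 99.1, 91.1 and 77.9 FPKM and 35.7, 34.9 and 37.0 (-1.29 ± 0.23, adjusted p = 0.0023).

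Detoxification genes were lower in 29 of 43 tested members and higher in 1 (median -2.46), and 13 passed the stricter test. Their median was -1.83, -2.90 and -3.13 against FA1, FA2 and FA3 alone. Cyp2c55, a cytochrome P450 of the colon (chromosome 19, 39007019 to 39042693), had the largest fall of any gene named here, from 71.6, 1074 and 1702 FPKM to 0.596, 1.49 and 0.678 (-8.08 ± 1.33, adjusted p = 0.00171). With FA1 as the only adjacent library the difference was -5.27. Sult1a1, a phenol sulphotransferase, was at 187, 295 and 274 FPKM and 7.47, 6.86 and 2.68 (-5.31 ± 0.51, adjusted p = 2.91e-04), and the carboxylesterase Ces2c at 109.8, 248 and 217 and 3.98, 4.11 and 2.89. The member that rose was another cytochrome P450, Cyp2b10, with a log2 difference of 2.35.

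Steroid and retinoid metabolism genes were lower in 13 of 21 tested members and higher in 4 (median -2.28). Hsd3b3, a hydroxysteroid dehydrogenase, was at 90.0, 284 and 249 FPKM in adjacent tissue and 1.66, 1.78 and 0.378 in tumours (-6.42 ± 0.60, adjusted p = 2.91e-04). Nr5a2, a nuclear receptor that drives steroid synthesis in the gut, was at 29.2, 41.7 and 42.6 FPKM and 2.01, 2.34 and 0.318. The enzymes that make retinoic acid moved in opposite directions. Aldh1a1 was at 13, 148 and 220.2 FPKM in adjacent tissue and 3.08, 2.52 and 2.60 in tumours (-4.37 ± 1.03, adjusted p = 0.0095), while Aldh1a3 was at 3.67, 1.95 and 1.45 and 158, 45 and 47 (4.45 ± 0.61, adjusted p = 7.54e-04).

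Transcription factors of intestinal identity were lower in 14 of 35 tested members and higher in 5 (median -0.46). After protein-coding rescaling 10 were lower and 8 higher, with a median of -0.01. Cdx2, the homeobox factor that sets intestinal identity, was at 20.4, 107 and 96.1 FPKM in adjacent tissue and 1.97, 1.45 and 2.86 in tumours (-4.32 ± 0.60, adjusted p = 8.05e-04). Vdr, the vitamin D receptor, was at 110.3, 125 and 124 FPKM and 12.9, 15.4 and 10.2 (-3.15 ± 0.39, adjusted p = 5.21e-04). Vdr had nearly the same level in the 3 adjacent libraries, whereas Cdx2 was much lower in FA1 than in the other 2. Klf4, a factor of post-mitotic surface cells, fell by 2.24 ± 0.37, and Nr1h4, the bile acid receptor, by 2.25 ± 0.47. In the opposite direction, Sox21 was at 1.42, 1.77 and 1.12 FPKM and 10.8, 16.0 and 10.5 (2.44 ± 0.33, adjusted p = 6.61e-04), and Gata5 at 0.284, 1.14 and 0.964 and 2.97, 15.2 and 7.90.

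Of 25 Hox genes tested, 5 were higher and 3 lower. The 5 were Hoxd9, Hoxd10, Hoxd11, Hoxd12 and Hoxd13, neighbouring genes that in development mark the hindmost body and gut. Hoxd12 was at 0.993, 0.030 and 0.024 FPKM in adjacent tissue and 6.78, 13.9 and 8.39 in tumours (3.00 ± 0.34, adjusted p = 4.12e-04). Hoxd11 was at 6.45, 0.055 and 0.724 FPKM and 16.7, 18.3 and 12.4, and Hoxd13 at 63.7, 69.6 and 55.6 in tumours. All 3 tumours expressed these genes, whereas in adjacent tissue FA1 did so far more than FA2 and FA3. The call of Hoxd13 (4.27 ± 1.11, adjusted p = 0.0143) was lost without FA2 (0.0586) or FA3 (0.0531), and against FA1 alone its difference was 0.99. Hoxb9 moved the other way, from 19.1, 30.9 and 36.9 FPKM to 12.6, 7.92 and 12.7 (-1.29 ± 0.25, adjusted p = 0.00322). The median of the Hox list was -0.40 with 3 adjacent libraries, and 0.28, -0.68 and 0.11 against FA1, FA2 and FA3 alone.

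Wnt target and feedback genes were higher in 31 of 42 tested members and lower in 1 (median 1.31), and 10 passed the stricter test. Axin2, the scaffold of the β-catenin destruction complex that serves as a universal readout of the pathway, was at 21.7, 21.4 and 13.9 FPKM in adjacent tissue and 102, 122 and 122 in tumours (2.56 ± 0.28, adjusted p = 3.76e-04). Secreted inhibitors rose more: Wif1, which binds Wnt ligands, was at 3.23, 15.1 and 2.57 FPKM and 137, 121 and 127 (4.37 ± 0.56, adjusted p = 6.02e-04). Notum, an enzyme that inactivates Wnt ligands, was at 3.23, 8.47 and 0.227 FPKM and 83.5, 58.1 and 51.1 (4.12 ± 0.63, adjusted p = 0.0012). FA2 had the highest level of both among the adjacent libraries and stayed far below the tumours. Nkd1, an inhibitor that acts inside the cell, was at 5.99, 16.7 and 1.36 FPKM and 127, 99.4 and 128, and the membrane inhibitor Apcdd1 at 2.16, 10.2 and 0.265 and 96.7, 27.8 and 99.8. Prox1, a homeobox factor activated by this pathway in colon tumours and also made by lymphatic endothelium, was at 4.03, 8.88 and 0.962 FPKM and 103, 88.1 and 92.2 (4.37 ± 0.49, adjusted p = 4.12e-04). The member that was lower was Tcf7l2, the TCF factor of the intestine, with a log2 difference of -0.96 that kept its call in 2 of the 6 fits that left out 1 library.

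Sp5, a transcription factor that is a direct target of the pathway, is shown because its promoter carries a TCF/LEF motif. It was picked after the motif search and the values were seen. Its levels were 0.22, 0.74 and 0.26 FPKM in adjacent tissue and 7.53, 6.47 and 7.51 in tumours (2.55 ± 0.24, adjusted p = 2.91e-04). The stretch lies on GRCm38 chr2:70474773-70474922, plus strand, from RefSeq (GRCm38.p6), and capitals mark CTTTGAT, whose first base is 104 bases before the listed start.
Sp5: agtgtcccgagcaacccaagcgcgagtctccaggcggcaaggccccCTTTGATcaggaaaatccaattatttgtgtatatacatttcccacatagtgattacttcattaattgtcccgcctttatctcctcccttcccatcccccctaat
The search covered CTTTGAT and CTTTGAA on both strands in the 250 bases before each RefSeq start. Of the 31 higher Wnt list genes, 18 had an entry and 2 of these, Sp5 and Mmp7, held a match (11.1%). Of the 42 tested, 26 had an entry and the same 2 held a match (7.69%), against 8.63% of all 27025 genes with an entry (7.48% of 32851 promoters). The share in the list is close to that of all genes, and nothing about the factor follows from windows with no match.

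Stem and crypt base genes were higher in 11 of 22 tested members and lower in 3 (median 0.69). Lgr5, a receptor for R-spondins found on crypt base stem cells, was at 2.22, 3.95 and 2.95 FPKM in adjacent tissue and 18.2, 45 and 22.1 in tumours (2.78 ± 0.31, adjusted p = 3.70e-04). Ascl2, a transcription factor of the same cells, was at 2.27, 1.45 and 1.65 FPKM and 4.76, 13.8 and 6.81, and Smoc2, a secreted matrix protein, at 5.97, 6.30 and 7.04 and 27.9, 55.3 and 30.1. FT2 had the highest level of all 3. The 3 lower members were Aqp4, a water channel, Clca4a and Prom1, the last called in 2 of the 6 fits without 1 library. Among Wnt ligands and receptors, 9 of 26 tested genes were higher and 3 lower, and 17 and 2 after protein-coding rescaling. Wnt6 was at 0.548, 2.54 and 0.156 FPKM and 16.3, 5.17 and 14.9, and Wnt10a rose by 2.52 ± 0.45. The ligand Wnt5a, made by stromal cells, rose from 3.65, 2.71 and 4.48 FPKM to 14.1, 13.9 and 8.86. The receptors Fzd5 and Fzd8 and the co-receptor Lrp6 were the lower members, Fzd5 from 25.2, 47.8 and 44.0 FPKM to 12.5, 10.4 and 8.90.

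**Figure D3:**
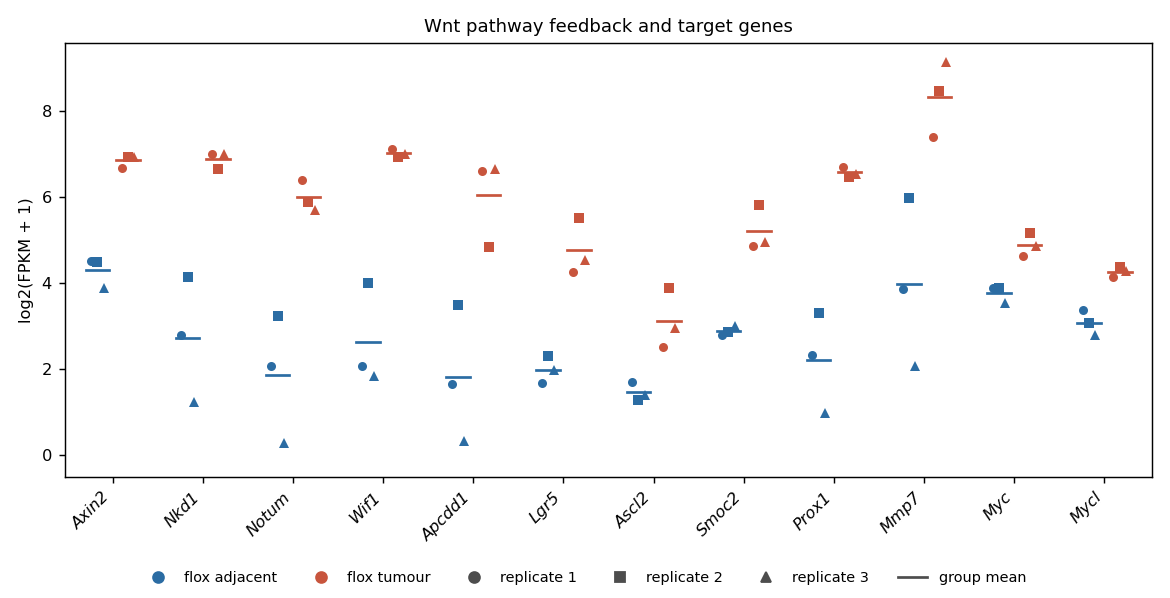
log2(FPKM + 1) of Wnt feedback genes, crypt base genes and targets in each flox library. Blue marks adjacent tissue, red tumours, the shape the replicate number and the short line the group mean. Tumours lie above all adjacent libraries for each gene, with Axin2 at 102 to 122 FPKM in tumours against 13.9 to 21.7 in adjacent tissue.

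Of 40 DNA replication genes, 17 were higher and 0 lower (median 0.59). With a library left out 8 to 22 were called, with 8 without FA2 and 9 without FT3. Rfc3, a subunit of the clamp loader, was at 14.5, 11.3 and 13 FPKM in adjacent tissue and 29.8, 30.2 and 33.1 in tumours (1.21 ± 0.13, adjusted p = 3.44e-04). Of 40 mitosis genes, 9 were higher and 1 lower (median 0.52), 25% called against 36.3% of all genes. The mitosis calls rested on single libraries and numbered 1 to 15 with 1 left out. Without FA2 0 genes were higher and 1 lower, and 5 were called without FT2 and 2 without FT3. Top2a, topoisomerase II alpha, was at 49.4, 33.1 and 43.4 FPKM in adjacent tissue and 62.0, 78.7 and 101 in tumours (0.92 ± 0.25, adjusted p = 0.0163), with adjusted p of 0.0684 without FA2 and 0.0622 without FT3. The lower member was Pttg1, securin, from 20.4, 28.9 and 26.6 FPKM to 11.6, 15.2 and 12.9. After protein-coding rescaling 36 of the 40 replication genes and 36 of the 40 mitosis genes were higher.

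Mitosis genes are known for a cell cycle homology region, TTTGAA, and CCAAT boxes in their promoters, and both motifs were looked for on both strands in the same 250-base windows. Top2a is shown as the member with the most matches, on GRCm38 chr11:99024190-99024436, minus strand, from RefSeq (GRCm38.p6), with the matches in capitals (ATTGG and TTCAAA are the reverse complements).
Top2a: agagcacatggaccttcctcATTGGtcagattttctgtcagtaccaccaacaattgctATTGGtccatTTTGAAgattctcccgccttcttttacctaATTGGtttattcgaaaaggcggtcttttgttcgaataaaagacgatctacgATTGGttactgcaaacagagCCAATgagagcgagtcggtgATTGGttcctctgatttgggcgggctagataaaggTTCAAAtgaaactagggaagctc
Of the 32 tested mitosis genes with an entry, 24 held CCAAT (75%, against 37.5% of all genes with an entry) and 10 held TTTGAA (31.2%, against 18.3%). Of the 9 higher genes 6 had an entry, and each motif was in 4 of them, in Top2a, Prc1 and Cks1b both. TTTGAA overlaps the TCF/LEF motif CTTTGAA.

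Ribosome biogenesis genes were higher in 21 of 36 tested members and lower in 1 (median 0.57). Myc, the growth-promoting transcription factor, was at 13.8, 13.7 and 10.6 FPKM in adjacent tissue and 23.7, 34.9 and 28.1 in tumours (1.12 ± 0.19, adjusted p = 0.00192). Mycl, its relative, was at 9.39, 7.47 and 5.91 FPKM and 16.7, 19.7 and 18.3. Nop56, a nucleolar protein that guides ribosomal RNA modification, rose by 1.12 ± 0.20. Cytosolic ribosomal protein genes did not follow: 6 of 48 were lower and 0 higher, with a median of -0.04, but 26 were higher after protein-coding rescaling. Without FA1, without FA2 or without FT1 the 6 became 3.

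In the EGF and ErbB group 3 of 18 tested genes were higher and 4 lower (median 0.05), and 9 and 4 after protein-coding rescaling (median 0.47). The receptors Erbb2 and Erbb3 were among the lower, Erbb2 from 46.3, 60.6 and 56.9 FPKM to 19.5, 27.9 and 18.7 (-1.28 ± 0.30, adjusted p = 0.00928), together with Lrig3, from 24.4, 23.5 and 24.8 to 4.18, 5.48 and 2.36. The ligand Btc rose by 0.85 ± 0.19. ERK target genes, which are transcribed downstream of growth factor receptors, were higher in 14 of 32 tested members and lower in 1, Jund (median 0.57), and higher in 22 after protein-coding rescaling. Dusp4, a phosphatase that feeds back on ERK, was at 3.82, 4.94 and 3.33 FPKM and 19.1, 16.4 and 26.8 (2.10 ± 0.27, adjusted p = 5.69e-04), and Phlda1 at 17.8, 28.6 and 12.6 and 69.2, 80.9 and 85.7.

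In the BMP and TGFβ group 15 of 34 tested genes were higher and 1 lower (median 0.67). Inhba, the activin A subunit, was at 2.4, 1.11 and 0.294 FPKM in adjacent tissue and 17.9, 19.8 and 11.4 in tumours (3.01 ± 0.38, adjusted p = 5.33e-04). Bmp7 was at 1.75, 2.81 and 2.68 FPKM and 13.4, 10.1 and 10.6. The lower member was Bmp3, from 3.12, 15.4 and 26.2 FPKM to 1.54, 2.10 and 0.354, a call lost without FA2, FA3 or FT3 (adjusted p = 0.0641, 0.0633 and 0.0632). In the Notch group 7 of 19 genes were higher and 3 lower, with 5 called without FA2 and 6 without FT2. Notch1 was at 10.1, 10.2 and 8.37 FPKM and 19.6, 29.9 and 20.4 (1.18 ± 0.21, adjusted p = 0.00233), while the Notch target Nrarp fell by 1.07 ± 0.24. Of the hedgehog genes, Ihh, the ligand made by mature colonocytes, fell from 29.6, 36.5 and 36.3 FPKM to 10.7, 9.57 and 7.37 (-1.79 ± 0.24, adjusted p = 6.56e-04), and 3 of 11 were higher. The 4 hedgehog calls became 2 without FA2, FT1 or FT2.

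Genes of fetal and regenerating gut epithelium were higher in 23 of 34 tested members and lower in 2, the keratins Krt8 and Krt19 (median 1.85), and 7 passed the stricter test. Marcksl1 was at 15.6, 19.8 and 9.07 FPKM in adjacent tissue and 126, 122 and 154 in tumours (3.15 ± 0.31, adjusted p = 2.99e-04). Basp1 was at 1.30, 1.43 and 0.781 FPKM and 14.5, 13 and 14.4, and Il33, an alarmin of the IL-1 family, at 0.916, 0.733 and 0.670 and 25.6, 16.8 and 9.41. The tumours were closely alike for Marcksl1 and Basp1. Anxa8, an annexin, was at 64.7, 23.1 and 5.49 FPKM in adjacent tissue and 179, 155 and 158 in tumours.

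Antimicrobial and acute phase genes were higher in 10 of 25 tested members and lower in 4 (median 1.25). Lyz1, the lysozyme of Paneth cells, which the normal colon largely lacks, was at 39.5, 144 and 2.78 FPKM in adjacent tissue and 237, 924 and 1310 in tumours (4.56 ± 1.11, adjusted p = 0.0109). Mmp7, the protease that activates defensins in Paneth cells and is also a Wnt target, was at 13.5, 62.0 and 3.22 FPKM and 167, 350.3 and 565. Defa24, a defensin, was at 4.42, 28.2 and 0.252 FPKM and 95.0, 161 and 228. In all 3 genes FA2 was the highest adjacent library, FA3 the lowest, and FT3 the highest tumour. The lower members were Pigr, which carries IgA across the epithelium, Ang, Dmbt1 and Saa1, of which Dmbt1 kept its call in 3 and Saa1 in 2 of the 6 fits without 1 library.

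Squamous keratinocyte genes were higher in 10 of 15 tested members and lower in 1, Sprr2a1 (median 2.39), but not evenly between tumours. Of 24 members 15 were tested, and tumours alone could meet the filter. Krt14 was at 1.93, 1.52 and 0.486 FPKM in adjacent tissue and 142, 87.9 and 4.83 in tumours (4.24 ± 0.95, adjusted p = 0.00728). Krt5, its partner in basal cells, was at 93.8 and 89.2 FPKM in FT1 and FT2 and listed at 0 in FT3, and its call held only without FT3. Krt84, a hair keratin, was at 222, 5.12 and 18.1 FPKM, with a call lost without FA1, FA2, FA3 or FT1, and the hair keratin-associated Krtap3-1 at 30.3, 0.0689 and 0.118. The mean log2 level of the list was 4.45, 3.97 and 2.02 in the tumours against 1.34 to 1.56 in adjacent tissue. The 11 calls became 5 without FA2 or FA3, 6 without FT1 and 7 without FT2. Krt36, in contrast, was high in each tumour, at 271, 50.5 and 101 FPKM against 2.96, 1.67 and 0.152 (5.61 ± 0.79, adjusted p = 8.58e-04). Squamous and hair-type keratins are not products of normal colon glands, and whether FT1 and FT2 held other epithelium was not tested. The other genes that varied most between the tumours were Krt15, Krt6a, Krtdap, Ltf and the Y-linked Eif2s3y.

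Among neutrophil and chemokine genes 20 of 21 tested members rose and 0 fell (median 2.47), and 8 passed the stricter test. Of 27 members 21 were tested. Adjacent levels were low, so members could pass the filter through the tumours alone, and the share of rises is partly built in. S100a8 was at 1.24, 2.29 and 1.16 FPKM in adjacent tissue and 102, 55.7 and 170.4 in tumours (5.31 ± 0.58, adjusted p = 3.99e-04). Cxcl2, a chemokine that draws neutrophils, was at 0.066, 0.972 and 0.273 FPKM and 16.0, 16.8 and 48.0, and Cxcl5 at 1.28, 1.32 and 0.203 and 39.1, 20.5 and 78.9. FT3 was the highest tumour for all 3. Csf3r, the receptor for the neutrophil growth factor, was at 0.640, 0.357 and 0.442 FPKM and 6.53, 4.16 and 13.2 (2.47 ± 0.49, adjusted p = 0.00403). Ly6g, a defining neutrophil surface gene, was the member that did not pass (adjusted p = 0.345), at 192, 17.0 and 3.47 FPKM in adjacent tissue, where FA1 was above every tumour, and 65.1, 44.8 and 100.3 in tumours. The mean log2 level of the list ran from 0.444 to 0.901 in adjacent tissue and from 3.08 to 4.16 in tumours.

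IL-1 family genes were higher in 8 of 15 tested members and lower in 1, Casp1 (median 0.95). Il1b was at 1.87, 2.23 and 0.435 FPKM in adjacent tissue and 30.3, 30.4 and 84.3 in tumours (4.21 ± 0.61, adjusted p = 9.83e-04), and its decoy receptor Il1r2 at 0.789, 0.603 and 0.321 and 8.54, 3.96 and 14.8. Other cytokine genes were higher in 17 of 31 tested members and lower in 4 (median 0.85). Tnfrsf11b, the decoy receptor osteoprotegerin, was at 2.06, 4.39 and 0.962 FPKM and 63.5, 52.0 and 77.0 (4.34 ± 0.60, adjusted p = 7.77e-04). Socs3, a target of STAT3, was at 3.68, 6.27 and 5.53 FPKM and 20.6, 28.6 and 36.0, and Osmr, the oncostatin M receptor, rose by 2.38 ± 0.43. Ccl28, an epithelial chemokine for IgA plasma cells, fell from 64.6, 46.9 and 31.2 FPKM to 7.59, 6.04 and 3.23.

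**Figure D4:**
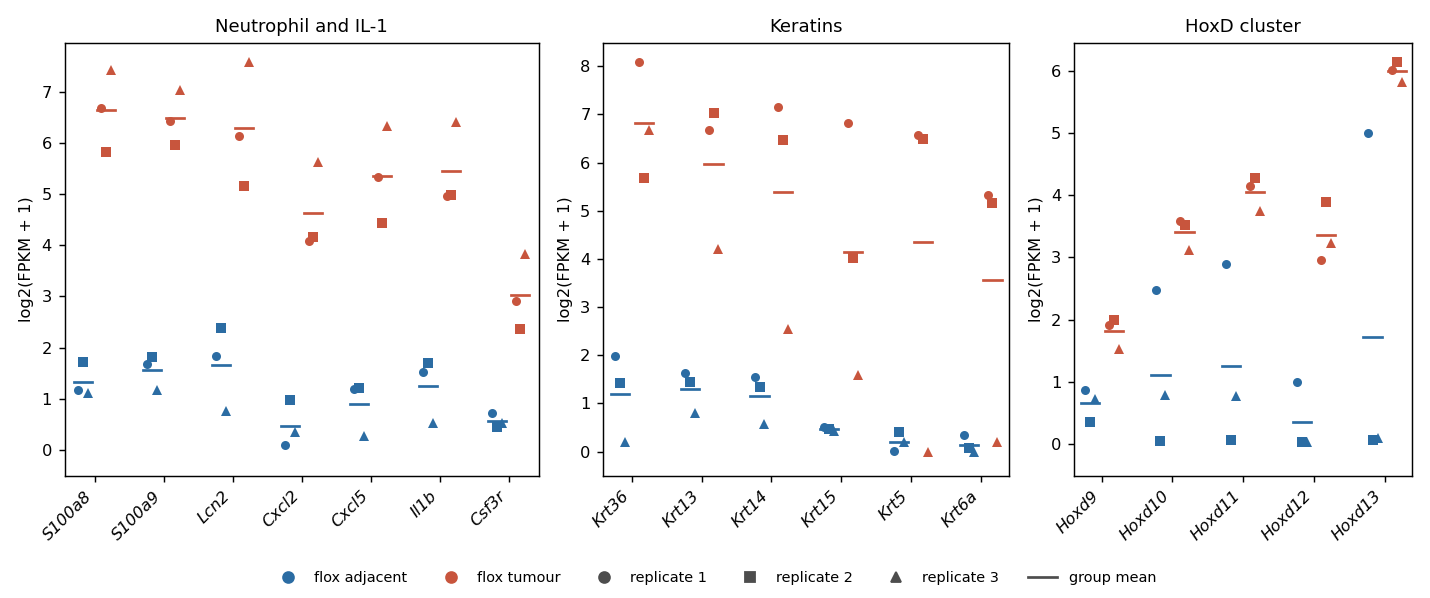
log2(FPKM + 1) of neutrophil and IL-1 genes (left), keratins (middle) and HoxD genes (right) in each flox library. Blue marks adjacent tissue, red tumours, the shape the replicate number and the short line the group mean. FT3 (red triangle) is highest for the inflammatory genes and lowest for Krt13, Krt14, Krt15, Krt5 and Krt6a among the tumours, and FA1 (blue circle) lies nearest the tumours for Hoxd9 to Hoxd13.

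The interferon response list had 1 of 38 genes called, Irf8, which was lower. Its mean log2 level was 3.21, 4.72 and 4.02 in adjacent tissue and 3.81, 2.73 and 5.38 in tumours, so the tumours spread more widely than the groups differed. Without FT2 6 genes were called, all higher, whereas the 4 called without FT3 and the 2 without FA1 were all lower, and 0 were called without FA2, FA3 or FT1. After protein-coding rescaling 4 were higher and 0 lower. Macrophage and monocyte genes were higher in 9 of 23 tested members and lower in 1 (median 1.04). Without FA3 5 were called, and 6 without FT1 or FT3. After protein-coding rescaling 17 were higher and 1 lower, and 16 higher and 1 lower with only the flox libraries fitted. Arg1, arginase, was at 0.754, 2.74 and 1.62 FPKM in adjacent tissue and 32.8, 23.7 and 33.1 in tumours (3.56 ± 0.42, adjusted p = 4.28e-04). Mertk, a receptor for dying cells, moved the other way, from 14.7, 24.8 and 18.9 FPKM to 4.62, 2.74 and 2.15. The broad macrophage markers Csf1r and Adgre1 did not pass (adjusted p = 0.0798 and 0.185). Csf1r was at 6.28, 4.66 and 4.07 FPKM and 17.1, 8.79 and 11.9.

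Lymphocyte genes showed no common direction. Of 11 MHC class II genes and of 24 B and plasma cell genes 0 were called, and of 3 fat and acinar cell genes 0 (1 without FA1). Igha, the IgA heavy chain, was at 1025, 806 and 1051 FPKM in adjacent tissue and 660.0, 602 and 268 in tumours (adjusted p = 0.368). Of 24 T and NK cell genes 2 were lower. Without FA1 8 were called, all lower, without FT2 3 were higher and 1 lower, and without any 1 of FA2, FA3, FT1 and FT3 1 was lower. After protein-coding rescaling 4 were higher and 1 lower. Among 11 mast cell genes 2 were higher and 1 lower. Hdc, the histamine-forming enzyme, which neutrophils also make, was at 0.367, 0.247 and 0.281 FPKM and 6.2, 3.4 and 12.5, while the mast cell markers Cpa3 and Mcpt1 overlapped between the groups. Of 8 platelet and red cell genes 4 were higher and 0 lower, among them Pf4, from 5.50, 1.48 and 1.83 FPKM to 12.1, 10.8 and 14.9.

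Matrix proteases and their inhibitors were higher in 21 of 28 tested members and lower in 0 (median 1.79), and 6 passed the stricter test. Mmp10, stromelysin 2, was at 7.28, 2.65 and 0.405 FPKM in adjacent tissue and 47.5, 126 and 38.4 in tumours (4.16 ± 0.63, adjusted p = 0.00113). Mmp13, a collagenase, was at 6.68, 1.47 and 0.723 FPKM and 22.9, 84.5 and 33.4, and Plat, the tissue plasminogen activator, at 1.98, 5.17 and 0.687 and 38.6, 24.0 and 50.8. FA1 was the highest adjacent library and FT2 the highest tumour for both Mmp10 and Mmp13.

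Collagen and matrix genes were higher in 20 of 32 tested members and lower in 0 (median 1.72). Without FA2 10 were called, 11 without FT2 and 13 without FA3. Fn1, fibronectin, was at 38.2, 16.5 and 14.7 FPKM in adjacent tissue and 99.2, 209 and 97.7 in tumours (2.53 ± 0.50, adjusted p = 0.0039). Thbs2, a thrombospondin of the matrix, was at 0.685, 1.39 and 0.695 FPKM and 13.2, 39.0 and 15.2 (3.46 ± 0.35, adjusted p = 3.04e-04). Fibroblast genes were higher in 8 of 19 tested members and lower in 0 (median 1.45). Without FA2 or FT2 2 were called, and 3 without FA3 or FT1. Vim, vimentin, was at 49.6, 38.4 and 22.4 FPKM and 251, 129 and 174 (2.31 ± 0.55, adjusted p = 0.0102). Dcn, decorin, was at 59.0, 9.51 and 12.8 FPKM and 216, 174 and 101, and its call was lost without FA2, FA3, FT1 or FT2, with adjusted p from 0.0546 to 0.0784. The mean log2 level of the fibroblast list was 3.56, 2.22 and 2.76 in adjacent tissue and 4.52, 4.5 and 3.78 in tumours, so FA1 lay near FT3. Fibroblast genes were thus measured also in the adjacent samples labelled epithelium.

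Endothelial genes were higher in 13 of 20 tested members and lower in 0 (median 1.01). Without FA2 or FA3 6 were called, 7 without FT1 and 8 without FT2. Cdh5, the cadherin of blood vessels, was at 3.18, 1.21 and 1.20 FPKM in adjacent tissue and 6.92, 9.46 and 7.33 in tumours (1.70 ± 0.41, adjusted p = 0.0106), and the vessel growth factor Angpt2 at 1.88, 1.61 and 1.95 and 5.87, 8.85 and 7.63. Smooth muscle genes were higher in 2 of 16 tested members and lower in 1, and 0 were called without any 1 of the libraries other than FA1. They varied widely within both groups: Actg2, a muscle actin, was at 17.8, 1.51 and 64.6 FPKM in adjacent tissue and 16.0, 30.5 and 2.29 in tumours. Enteric nerve and glia genes were lower in 3 of 11 tested members and higher in 1. Without FA3 or FT1 1 was called, and 2 without FT3. Elavl4, a defining gene of neurons, was below the filter, at no more than 0.134 FPKM in any flox library. Adipoq, of fat cells, was above 0 only in FA3 (1.45 FPKM), and the pancreatic Prss2 was listed at 0 in all 6.

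In prostaglandin and oxidant metabolism 7 of 28 tested genes were higher and 7 lower, and 9 were called without FA2 or without FA3. Ptgs2, cyclooxygenase 2, was at 2.15, 0.842 and 0.566 FPKM in adjacent tissue and 10.6, 12.5 and 9.12 in tumours (2.48 ± 0.44, adjusted p = 0.00233). Hpgd, which breaks prostaglandins down, was at 94.5, 156 and 170.1 FPKM and 28.9, 17.5 and 12.9 (-2.79 ± 0.46, adjusted p = 0.00167). The synthesis enzyme was thus higher and the breakdown enzyme lower in every tumour than in any adjacent library. Such a separation, in either direction, held for 53.5% of all genes. Pla2g2a, a secreted phospholipase, rose by 3.82 ± 0.64 and Hmox1, haem oxygenase 1, by 2.70 ± 0.29. Of 8 metal-binding and zinc transport genes 2 were higher, Mt3 and Mt4, and 2 lower, Slc39a5 and Slc30a1. Mt3 was at 6.47, 41.9 and 15.2 FPKM and 210.2, 90.7 and 219.6, and the zinc importer Slc39a5 at 17.3, 27.4 and 23.3 and 1.99, 2.71 and 0.644.

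Among 20 oncofetal and imprinted genes 6 were higher and 2 lower, with 4 called without FA2 and 5 without FA3, FT1 or FT2. Igf1, the growth factor, was at 3.59, 2.03 and 0.984 FPKM in adjacent tissue and 19.2, 23.7 and 10.9 in tumours (2.58 ± 0.43, adjusted p = 0.00166), and the imprinted factor Plagl1 at 0.518, 1.10 and 0.938 and 8.26, 4.53 and 7.87. Of 26 p53 target and cell cycle inhibitor genes 5 were higher and 6 lower. Without FA2 4 were called, 6 without FA3, 7 without FT2 and 5 without FT3. After protein-coding rescaling 10 were higher and 2 lower. Cdkn2a, which encodes p16 and p19Arf, was listed at 0, 0.155 and 0 FPKM and at 3.82, 6.48 and 1.11. Amino acid transport genes were higher in 6 of 19 tested members and lower in 5, with 7 called without FA2. Slc7a11, the cystine importer, rose from 1.15, 2.02 and 1.54 FPKM to 15.1, 10.1 and 11.8 (2.37 ± 0.28, adjusted p = 4.53e-04), and Slc6a14 fell from 162, 314 and 242 to 25.2, 18.1 and 12.7.

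Circadian genes were lower in 8 of 19 tested members and higher in 0 (median -0.73). Nr1d1, a repressor of the clock, was at 24.6, 36.4 and 35.0 FPKM in adjacent tissue and 6.82, 12.9 and 11.2 in tumours, and Dbp, a clock output, at 27.7, 24.3 and 38.9 and 5.96, 14.0 and 8.56. The hour of sampling is not given in the labels. Unfolded protein response genes were lower in 7 of 28 tested members, 4 without FA2, and the median of -0.20 became 0.24 after protein-coding rescaling. Ern2, the stress sensor of mucus-producing cells, was the largest, from 35.0, 39.8 and 46.8 FPKM to 6.70, 19.2 and 12.6. Of 14 TRAPP subunit genes 4 were lower, with 1 called without FA2 and 2 without FA3, FT1 or FT3. The list median of -0.18 became 0.21 after rescaling. Trappc10 was at 33.6, 31.7 and 31.1 FPKM and 18.1, 18.5 and 19.7 (-0.75 ± 0.14, adjusted p = 0.00348).

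Among long noncoding RNAs the largest rises were Gm45496, Gm45336, Gm830 and Gm12602, and the largest falls Gm11695, Gm3054, Foxd2os and 0610005C13Rik. Foxd2os, an antisense neighbour of the forkhead gene Foxd2, was at 13.5, 13.8 and 16.8 FPKM in adjacent tissue and 0.806, 0.508 and 0.360 in tumours (-3.34 ± 0.26, adjusted p = 2.48e-04). Gm12602 was at 0.128, 0 and 0 FPKM and 5.44, 5.04 and 8.77. The libraries are labelled strand-specific, but no source used here gives the strand setting of the quantification. The call of Gm45336 was lost without FA1, FA3, FT1 or FT3, with adjusted p from 0.0751 to 0.105.

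At the level of transcripts, 8726 of 40417 tested (21.6%) were called, 3713 higher and 5013 lower, with 4786 called without FA2, 5717 without FA3, 5560 without FT1 and 5627 without FT3. In 20 of 16351 genes, transcripts were called in both directions. Crybg1, a protein of the actin cytoskeleton, shows such an exchange between start sites that lie 144484 bases apart. Crybg1-201 was at 22.3, 26.2 and 26.1 FPKM in adjacent tissue and 11.8, 10.2 and 12.1 in tumours. Crybg1-202, from the upstream start, was at 0.989, 3.22 and 0.393 FPKM and 13, 7.35 and 13.6 (2.4 ± 0.51, adjusted p = 0.00881). The gene as a whole differed by -0.22 (adjusted p = 0.463). Palld, which organises actin bundles, was alike: Palld-203 was at 9.81, 8.09 and 8.47 FPKM and 3.12, 5.82 and 2.71, and Palld-202 at 6.59, 2.88 and 4.08 and 12.4, 13.2 and 6.53, from starts 168947 bases apart. Picalm-202, from a start 35009 bases downstream of another, was at 4.83, 1.88 and 1.36 FPKM and 19.2, 25.0 and 20.8, while the gene as a whole did not pass (adjusted p = 0.728). Katna1-201 and Katna1-202 share their start and are 1774 and 1775 bases long, so their exchange, from 0.0120, 0.963 and 0.00679 FPKM to 14.0, 15.2 and 19 for the former, is between nearly identical transcripts that reads can hardly tell apart. Mtus1, Cenpx, Igsf5 and Arhgef2 also had transcripts called in both directions.

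The ΔIEC mice gave a separate measure of the same contrast, from other animals. There 4981 genes (29.4%) were called, 2910 without the first ΔIEC tumour, and 4101 genes were called in the same direction in both genotypes, which is 66.5% of the flox calls and 82.3% of the ΔIEC calls. All 309 genes past 1 log2 unit in flox mice were called in the same direction in ΔIEC mice. Both contrasts took the spread of each gene from a single fit over all 12 libraries, so these calls are not independent. With only the ΔIEC groups fitted, 2564 genes were called in place of 4981. Axin2 differed by 2.44 in ΔIEC mice and 2.56 in flox mice, Lgr5 by 2.63 and 2.78, S100a8 by 5.52 and 5.31, Muc2 by -4.04 in both, and Cdx2 by -3.58 and -4.32. Krt14 differed by 2.87 in ΔIEC mice and 4.24 in flox mice. The lists did not all match. Squamous genes were higher in 2 members in ΔIEC mice and 10 in flox mice (medians 0.75 and 2.39). Endothelial genes were higher in 4 and 13, and fibroblast genes in 3 and 8. Genes of the mitochondrial genome were lower in 2 and 9. Closer were the neutrophil list, with 19 and 20 higher, and the goblet list, with 24 and 23 lower. The test of the difference between genotypes called 0 genes with limma, and 1 gene without FA3. An unadjusted p below 0.05 was reached by 448 genes, where 848 would be expected if no gene differed. The p-values of this test thus ran high, and its power was not measured. The 0 calls therefore do not show that the genotypes were alike. Called in opposite directions were 3 genes, the noncoding Gm22362 and Gm25082 and the pseudogene Gm13433, each with an adjusted p of 0.9998 for the difference. The smallest unadjusted p belonged to Top3b, Gm22043 and Gm22362. Top3b, a topoisomerase, was at 0.00171 FPKM or less in the 3 flox adjacent libraries and at 2.5, 1.66 and 1.38 in flox tumours, against 0.742 to 1.25 in ΔIEC adjacent tissue and 0.514 to 1.21 in ΔIEC tumours.

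**Figure D5:**
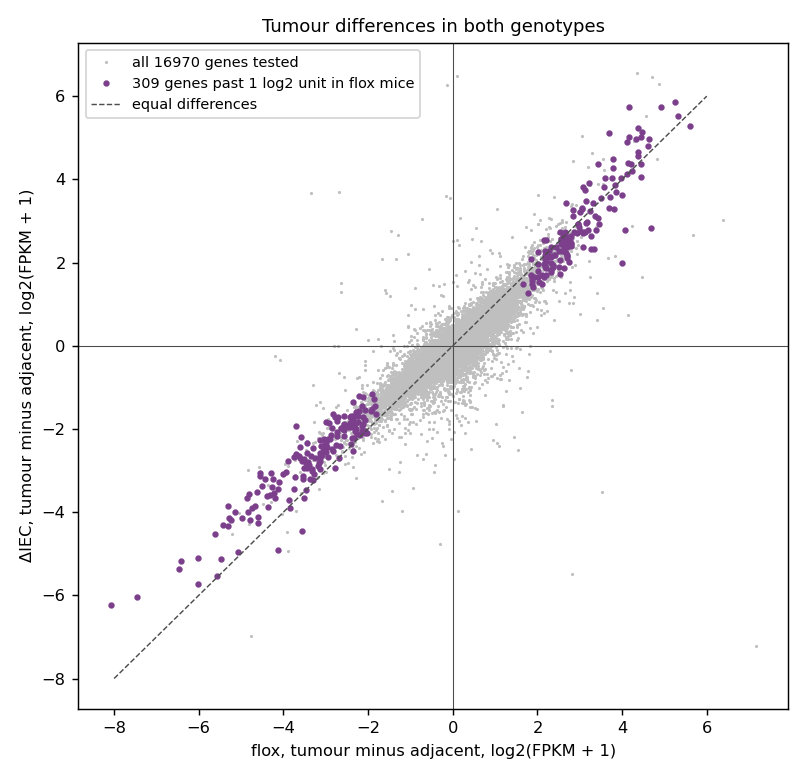
Tumour minus adjacent difference of each tested gene in flox mice (x axis) and ΔIEC mice (y axis), both on the log2(FPKM + 1) scale. Grey points are all 16970 genes, purple points the 309 past 1 log2 unit in flox mice, and the dashed line marks equal differences. All purple points lie in the quadrants of equal sign.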

How the data were processed

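The deposited table gives log2 of FPKM + 1 for 123062 transcripts in 12 libraries, with 0 columns unmatched to a label. Per the labels' protocols, total RNA went into strand-specific libraries, and the submitters' processing notes name FastQC, STAR 2.5, Cuffnorm and GRCm38. No source used here gives settings, annotation or normalization. The product of FPKM and transcript length summed to 866732 to 1238666 in the flox libraries, so values are not scaled to a constant total.

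Of the transcripts, 118004 (95.9%) matched GENCODE M21. Their FPKM were summed per gene. The 16970 genes with FPKM of at least 1 in at least 3 libraries were fitted with limma 3.58.1 (R 4.3.3) on log2(FPKM + 1), pseudocount 1, with 4 group means over 12 libraries (8 residual degrees of freedom), trended and robust, two-sided, called at a Benjamini-Hochberg adjusted p below 0.05. The test for more than 1 log2 unit is limma's treat. The fit was tested on simulated data with the residual spread of these genes, in which 200 genes were changed in the flox tumours. In these simulated data it recovered 55% of changes of 1 log2 unit and 89% of those of 2, and 4.64% of its calls were false. Far fewer genes were changed there than the 6163 called here, so these rates need not hold for the calls. The effect of deviations shared by many genes of 1 library, as seen in FA1, was not tested.

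The members and gene lists were chosen with earlier results of these data known. Lists are described by counts and medians, without a set test. Named genes are the 10 largest rises and falls among called protein-coding genes with mean FPKM of at least 5, no overlap and 1 direction in all codes, leaving out Gm, Rik and antigen receptor genes. Under the same conditions come the 5 largest rises and falls in FPKM. To these are added up to 6 members per list by absolute difference (by p where none was called), 4 noncoding RNAs each way, the 8 most variable genes among tumours, up to 8 genes with transcripts in both directions, cell type markers and 3 genes by interaction p. List members called against their list, Sp5, Ly6g and the opposite calls were chosen with their values in view. The libraries of a group carry different animal codes, but the labels do not describe them as separate mice, and p-values rest on the spread between these libraries. Alternatives were other pseudocounts, filters, scalings, blocks, groups and left-out libraries. Each flox adjacent library alone against the tumours was added after seeing the data. A few genes that the rule names are not reported here, though they stay in the fits and in the list counts.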

Additional observations from a re-analysis of the deposited data

How the results depend on the processing

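The 6163 calls fell to 1255, 2996 and 2570 with FA1, FA2 or FA3 as the only adjacent library (added after the data were seen, with the spread of the lone library taken from the other groups, so the loss of 2 libraries is part of each fall) and to 309 with a minimum of 1 log2 unit. Leaving out 1 library of the 12 gave 3891 to 6725. Calls that were higher made up 45.7% as deposited, 50.9% after quantile normalization, 40.3% after median centring and 79.3% after protein-coding rescaling, the last with 6540 higher and 1706 lower. In ΔIEC mice the 4981 calls became 2564 with only those groups fitted, 152 with the minimum, and 2910 to 5086 with a library left out. The interaction gave 0 to 1. Transcript calls, 8726 in all libraries, ranged from 4786 to 8048 with a flox library left out.

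A fixed replicate block by animal code called 4803 genes, 4432 of them shared and all 309 included, and 5516 transcripts. It called 20 macrophage genes in place of 10, 6 squamous genes in place of 11 and 1 ribosomal protein gene in place of 6. It called 0 smooth muscle genes, where the main fit had 2 higher and 1 lower. A random block called 6286 (correlation 0.0291). Deviations from the group means correlated at 0.0493, -0.192 and 0.105 within the 3 codes, and not every library correlated best with its own number. With 3 libraries per group, the deviations within a group are not independent. These correlations therefore cannot show whether the libraries of a code are paired. The main fit did not use the code as a pairing.

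After protein-coding rescaling these genes changed sign: Trappc12 0.0296, Trappc9 0.0420, Rpl7a 0.0710, Rpl37 0.0910, Rpl38 0.10 and Rpl18 0.14. After quantile normalization Rps27 was at 0.0284, Rpl7a 0.0347, Rpl37 0.16, Rpl38 0.0331 and Rpl18 0.0885. Against FA3 alone Gm22362 was at 0. The depth is unknown, so low FPKM values carry an error that cannot be stated.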
